A study of Mus musculus with 6 samples.

Results

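The transcripts of cytosolic ribosomal proteins were examined in 3T3-L1, a line of mouse fibroblasts able to become fat cells in a dish. Members were the probe sets, the groups of oligonucleotides that report 1 transcript on the array, that named exactly 1 gene with an Rpl or Rps symbol followed by a number, or Rplp0, Rplp1, Rplp2 or Rpsa. S6 kinase genes and pseudogenes were left out. This gave 46 genes, 24 of the large and 22 of the small subunit, of 18193 genes that a probe set named alone. They were read by 100 of 45101 probe sets. The series compared 3 control cultures with 3 cultures given resveratrol, a plant polyphenol, each on 1 single-colour array of total RNA. No other agent or genotype appears in the labels for either group, and the labels give no dose, duration or state of differentiation. Nor do they say whether a group's cultures were grown at different times, so the p-values cover only the spread among these samples. Precision is limited by the number of arrays.

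The cytosolic ribosome is built from a large and a small subunit. Each is made of ribosomal RNA and a set of proteins, most of which are needed in equal numbers. The large subunit joins amino acids and carries a flexible stalk of P proteins that recruits elongation factors, while the small subunit reads the messenger RNA. Messenger RNAs of ribosomal proteins typically begin with a C followed by a run of pyrimidines, the terminal oligopyrimidine tract, through which mTOR and LARP1 control their translation. An array of total RNA measures the amount of a transcript and not its translation, and in a culture fewer cells of a type and less RNA per cell cannot be told apart.

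RefSeq promoters of assembly GRCm38.p6 were found for 40 of the 46 genes. In 8 of the 40 (20%) an annotated start had C as base +1 and only C or T up to base +5 on the sense strand. The same held for 3.01% of the 27025 genes in the table. A C followed by at least 4 pyrimidines began somewhere from 10 bases before to 10 bases after the start in 65% of member genes and 33.3% of all genes. Windows from 15 bases before to 15 bases after the start are shown for the 4 genes whose difference, below, was above 0.3 and for 2 proteins of the stalk, whose values show the spread between arrays. Capitals mark the pyrimidine run found by this search, and a run at +1 is present in Rpl14, Rps27, Rps6 and Rplp2.
Rpl14, chr9:120571502-120571531, plus strand: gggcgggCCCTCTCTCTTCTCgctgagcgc
Rps27, chr3:90213634-90213663, minus strand: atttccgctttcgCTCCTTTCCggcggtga
Rps6, chr4:86857353-86857382, minus strand: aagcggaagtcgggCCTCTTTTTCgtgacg
Rpl12, chr2:32961697-32961726, plus strand: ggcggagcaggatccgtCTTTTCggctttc
Rplp2, chr7:141447636-141447665, plus strand: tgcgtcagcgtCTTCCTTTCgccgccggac
Rplp0, chr5:115559452-115559481, plus strand: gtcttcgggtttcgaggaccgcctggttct
The window of Rpl12 has its run after the start, and that of Rplp0 holds no such run. These matches describe the annotated starts and not the starts used in these cells.

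The ribosomal protein probe sets lay at the bright end of the array. Their mean intensity over the 6 arrays was above 4000 for 51 probe sets and above 8000 for 5. They made up 51 of the 353 probe sets above 4000 and 5 of the 27 above 8000. No probe set on the array had a mean above 16000. The highest value of a cell transcript was 12054, 14421 and 8760 on control arrays 1, 2 and 3 and 11741, 8917 and 9121 on resveratrol arrays 1, 2 and 3. On all 6 arrays this was Fabp4, a marker of fat cells, so the values are those of a single transcript. They differed between arrays of the same group, and were lowest on control 3, resveratrol 2 and resveratrol 3. These were also the arrays on which the 18 bacterial and phage spike probe sets were dim: their mean log2 intensity was 10.01 to 10.29, against 10.74 to 11.03 on control 1, control 2 and resveratrol 1. Whether signal was lost by saturation was not tested, since the deposited values do not mark saturated cells of the scan. Intensity depends on the probes, so no member's level is set against another's.

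Of the 42 member genes bright enough to be tested, each by its brightest probe set, 1 was higher with resveratrol, 0 were lower and 41 did not pass. Over all 12630 genes tested the share called was 10.5% (5.32% higher, 5.21% lower). The test was limma on log2 intensity with Benjamini-Hochberg adjustment over all 27022 probe sets tested, at a threshold of 0.05. At an unadjusted p under 0.05 there were 6 higher and 0 lower member genes, where 25.8% of all genes reached that p and 14% did so as higher. With cyclic loess normalization the same test called 1 higher and 0 lower, with 5.27% of all genes higher, but the gene was Rps27l and not Rpl14. The median log2 difference, resveratrol minus control, was 0.00039 over the member genes, with 21 positive and 21 negative, and 0.02 over all genes tested. The large subunit had a median of -0.02 (22 genes) and the small subunit 0.0032 (20 genes). The median width of the 95% interval of a member gene was 0.52 on the log2 scale.

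**Figure D1:**
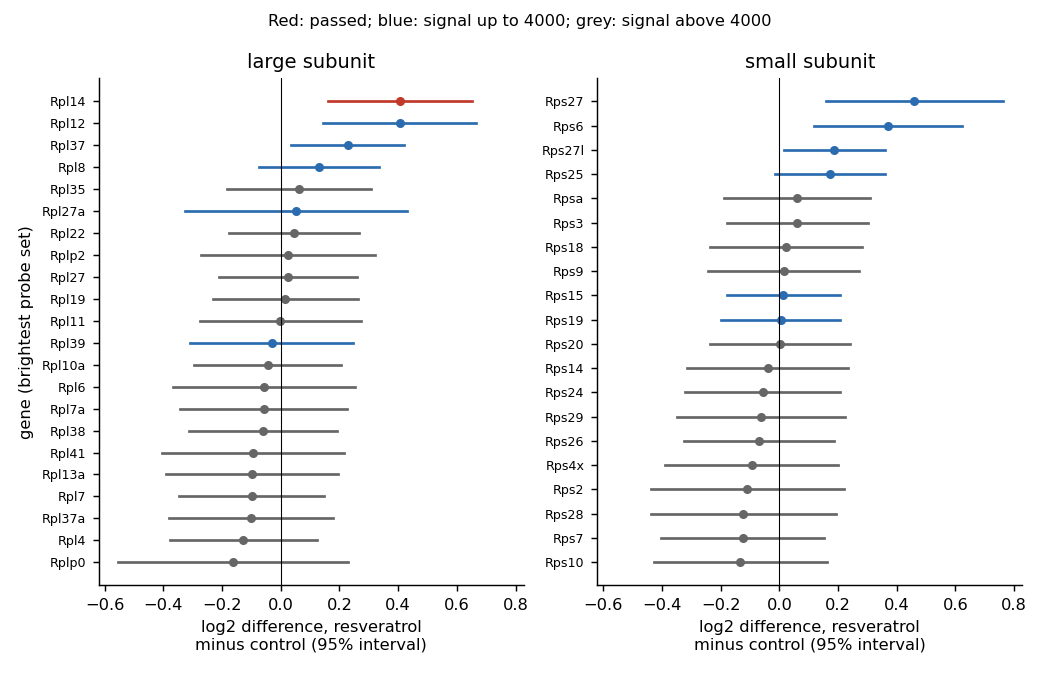
Log2 difference in intensity (resveratrol minus control) with its 95% interval for each of the 42 tested member genes, by brightest probe set, large subunit left and small subunit right. Rpl14 (red) is the gene that passed, and all 30 genes with a mean intensity above 4000 (grey) have intervals that span 0.

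Brightness divided the members. The 30 genes represented above 4000 had differences between -0.16 and 0.06 with a median of -0.06, 10 of them positive, and all 30 intervals spanned 0, with -0.56 as the lowest bound and 0.32 as the highest. The 12 genes represented at or below 4000 had a median of 0.18, 11 of them positive, and reached 0.46. Counted by probe set, 36 of 38 at or below 4000 were positive (94.7%, median 0.16), against 52.2% of the 26631 other probe sets in that range (median 0.01). Above 4000, 18 of 51 were positive (35.3%, median -0.06), against 25.2% of 302 others (median -0.10). Groups that did not overlap, with every resveratrol array above every control, were seen for 16 member probe sets of 89 against 13.8% over all probe sets, and the opposite order for 0 against 12.6%. Of the 21 member probe sets under 1000, 8 lay apart in this way (13.3% of all in that range), 8 had a difference above 0.3 (10.3%) and 2 were called higher (3.79%).

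**Figure D2:**
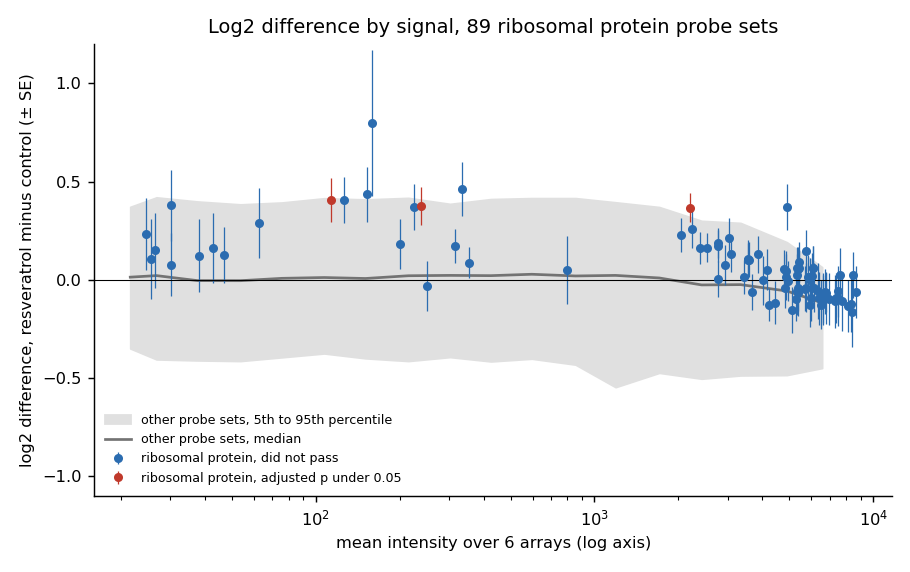
Log2 difference (resveratrol minus control, ± SE from limma) against mean intensity over the 6 arrays (log axis) for the 89 tested member probe sets, over the median (line) and the 5th to 95th percentile (band) of other probe sets. Points at or below 4000 lie mostly above 0, with a median of 0.16, and those above 4000 scatter around -0.06.

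The bright members varied between arrays of 1 group, with control 3 the lowest. The median deviation of the 51 member probe sets above 4000 from their own mean was 0.12 on control 1, 0.15 on control 2 and -0.24 on control 3. It was 0.10, -0.09 and -0.07 on resveratrol 1, 2 and 3. Control 3 was the lowest of the 6 arrays for 48 of these 51 probe sets and for 63.6% of the 302 others above 4000, whose median deviations were 0.13, 0.21 and -0.19 in controls and 0.07, -0.13 and -0.10 in resveratrol cultures. The spike probe sets deviated the same way, by 0.44, 0.49 and -0.52 in controls and by 0.19, -0.27 and -0.32 with resveratrol. The 21 member probe sets under 1000 showed a different order: their median deviation was -0.13, -0.14 and -0.09 on the controls and 0.04, 0.10 and 0.16 on the resveratrol arrays, so the groups lay apart.

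**Figure D3:**
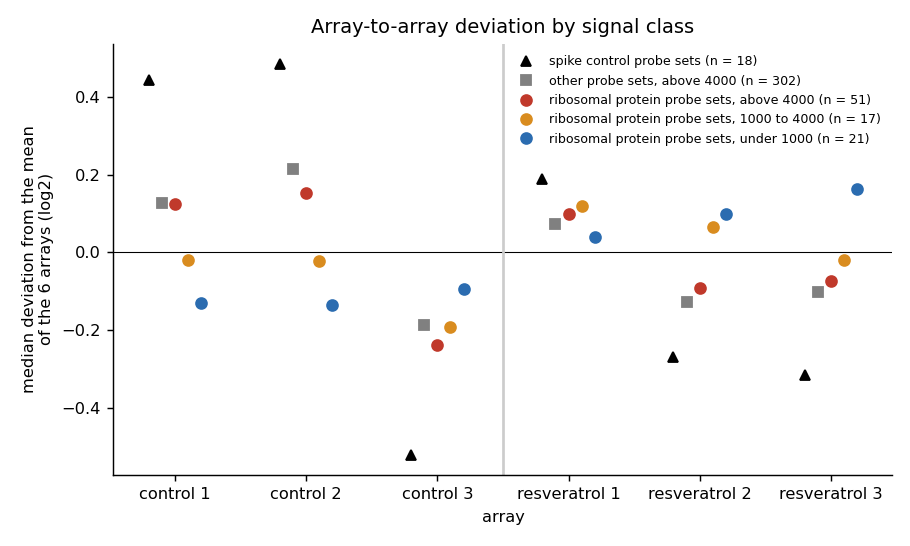
Median deviation from the mean of the 6 arrays (log2) on each array, for the spike probe sets, other bright probe sets and member probe sets in 3 ranges of mean intensity. The bright members go from 0.15 on control 2 to -0.24 on control 3, as the spikes do, while members under 1000 are below 0 on all 3 controls and above 0 on all 3 resveratrol arrays.

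The spike signal split the arrays into a brighter set (control 1, control 2, resveratrol 1) and a dimmer set (control 3, resveratrol 2, resveratrol 3). Within the brighter set the median difference of the 42 genes was -0.03, with 26 negative, and within the dimmer set it was 0.18, with 41 positive. Neither set allows a test of its own, since each holds only 1 array of 1 of the groups. For the 30 bright genes, 22 were negative in the brighter set and 30 positive in the dimmer set. With the split as a block in the fit the median was 0.07, 37 of 42 genes were positive and 0 passed (4.19% of all genes were higher), and 2 member probe sets passed as higher and 0 as lower (3.19% and 3.83% of all probe sets). With quantile normalization, which gives all arrays the same distribution of values, the median was also 0.07 and 36 were positive. In that setting 5 genes passed as higher, Rpl8, Rpl14, Rpl37, Rplp2 and Rps27l, against 6.02% of all genes, and 14 probe sets did, with 0 lower (4.58% higher and 4.74% lower over all). Without control 3 the median was -0.13 and 8 genes were positive. The sign of the median over the members thus depended on which arrays were compared. The part of array brightness in the members' differences was not tested.

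**Figure D4:**
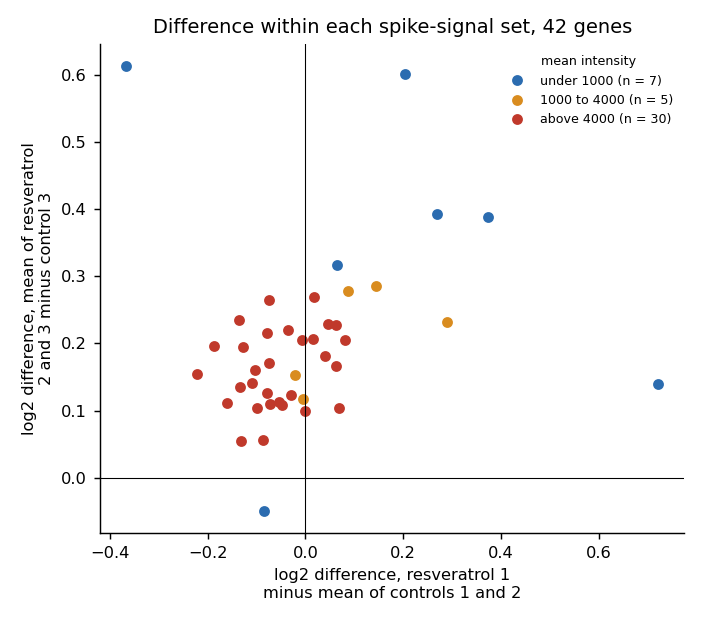
Log2 difference within the arrays of brighter spikes (resveratrol 1 minus the mean of controls 1 and 2, horizontal) and within those of dimmer spikes (mean of resveratrol 2 and 3 minus control 3, vertical) for 42 member genes, coloured by mean intensity. All but 1 lie above 0 on the vertical axis, and 26 lie left of 0 on the horizontal axis.

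The stalk proteins showed this spread plainly. Rplp0, the P protein that anchors the stalk and a common reference transcript, had intensities of 9602, 10931 and 6335 in controls and 8999, 6951 and 7578 with resveratrol. The controls spanned the resveratrol values on both sides, and the log2 difference was -0.16 ± 0.18 (SE; adjusted p = 0.675). It was -0.19 in the brighter set of arrays and 0.20 in the dimmer set. Rplp2, one of the P proteins at the tip of the stalk, had 8197, 8412 and 6110 in controls and 8672, 7359 and 6955 with resveratrol, groups that overlapped, with a difference of 0.02 ± 0.14 (adjusted p = 0.945). Rplp2 had 0.18 with quantile normalization (adjusted p = 0.0370) and 0.14 with the spike split as a block (adjusted p = 0.234). Rplp1 had no probe set that named it alone.

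Rpl14 was the large-subunit gene that passed. Its single probe set had intensities of 95.4, 91.6 and 98.9 in controls and 126, 148 and 122 with resveratrol. Every resveratrol array was above every control, from a mean of 95.3 ± 3.65 (SD, n = 3) to 132 ± 13.8, a log2 difference of 0.41 ± 0.11 (SE; 95% interval 0.16 to 0.65, limma adjusted p = 0.0472). The difference was 0.37 in the brighter and 0.39 in the dimmer set of arrays. The adjusted p was 0.0942 with the split as a block, and between 0.0673 and 0.192 with any 1 array left out, so the call rested on all 6 arrays. It was also lost with cyclic loess normalization (adjusted p = 0.0522), without a filter on dim probe sets (0.0811) and without an intensity trend (0.0792). A further 5 probe sets named Rpl14 together with its pseudogene, of which 1 passed. It had 2084, 1655 and 1723 in controls and 2299, 2362 and 2222 with resveratrol, a difference of 0.34 (adjusted p = 0.0488). The other 4 had 0.10 to 0.21, with overlapping groups and adjusted p between 0.261 and 0.702. None of these is a member, because gene and pseudogene cannot be separated on them.

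Rpl22, an RNA-binding protein at the surface of the large subunit, had probe sets that disagreed. On the probe set 1416603_at the intensities were 1959, 1889 and 1901 in controls and 2499, 2354 and 2583 with resveratrol. Treated and control values did not overlap, and the rise of 0.37 ± 0.07 (SE; interval 0.20 to 0.53) had an adjusted p = 0.0118, the smallest among the members. It was 0.37 in both sets of arrays, and its adjusted p was 0.0106 with the split as a block and 0.00155 after quantile normalization. The call was lost without an intensity trend in the fit (adjusted p = 0.0713), without control 2 (adjusted p = 0.0510), without resveratrol 1 (0.0527) and without resveratrol 3 (0.0514). The brightest probe set of the gene, 1453118_s_at, had 5032, 5158 and 4150 in controls and 5152, 4769 and 4810 with resveratrol, which overlapped, and a difference of 0.04 (adjusted p = 0.857). A further one, 1448398_s_at, had 0.09 (adjusted p = 0.594). Rpl22l1, the paralog that can take the place of Rpl22 in the ribosome, had 3137, 3148 and 2519 in controls and 2795, 2912 and 2952 with resveratrol, a difference of -0.02 (adjusted p = 0.950).

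Rps3, a small-subunit protein at the channel where messenger RNA enters, was likewise called on a probe set other than its brightest. That probe set is a dim one, and Rps3 is named after its values were seen. On 1455600_at it had 218, 198 and 200 in controls and 273, 303 and 241 with resveratrol. Here too the groups did not overlap, and the difference was 0.38 ± 0.10 (SE; adjusted p = 0.0392), with 0.37 and 0.41 in the brighter and the dimmer set of arrays. The adjusted p was 0.0669 with the split as a block and 0.0501 after quantile normalization. The call was also lost without control 2 (adjusted p = 0.127), control 3 (0.0939), resveratrol 1 (0.116) or resveratrol 2 (0.159). Cyclic loess (0.0531), no filter on dim probe sets (0.0753) and no intensity trend (0.111) ended it too. Its brightest probe set, 1435151_a_at, had 5368, 5858 and 4478 in controls and 5791, 5112 and 5394 with resveratrol, which overlapped, with 0.06 (adjusted p = 0.817). With Rpl14 and Rpl22 this completes the 3 member probe sets called, all higher, of 89 tested, against 8.17% called over all probe sets (3.95% higher, 4.22% lower).

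**Figure D5:**
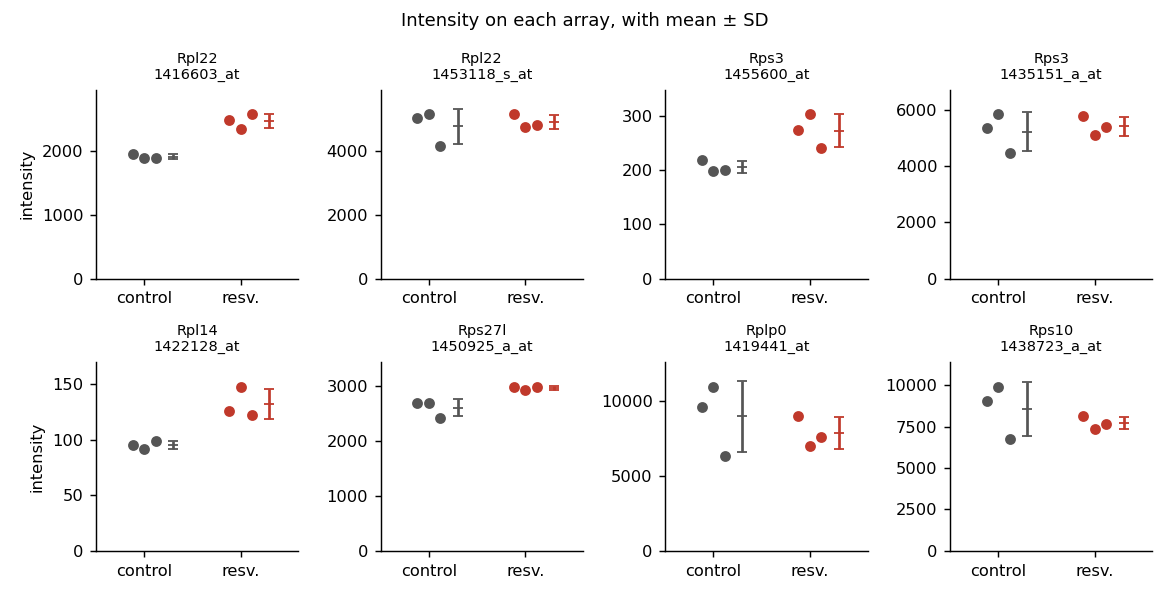
Intensity on each array (points) with the group mean ± SD (bars) for 8 probe sets, control in grey and resveratrol in red, each panel with its own axis from 0. Rpl22, Rps3 and Rpl14 lie apart on the probe sets that passed, while the bright probe sets of Rpl22, Rps3, Rplp0 and Rps10 overlap and have their lowest value on control 3.

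Among other large-subunit proteins, Rpl12, which lies at the base of the stalk, had intensities of 104, 100 and 116 in controls and 126, 151 and 163 with resveratrol. The groups did not overlap, and the difference of 0.41 ± 0.12 (SE) missed the threshold with adjusted p = 0.0601. Brighter probe sets that named Rpl12 together with other genes had -0.11 and -0.05 (adjusted p = 0.724 and 0.872). Rpl37 had 1923, 1905 and 1824 in controls and 2342, 2349 and 1958 with resveratrol, apart by 0.23 ± 0.09 (adjusted p = 0.148). Brighter probe sets that named Rpl37 together with Rpl37rt had -0.02 and -0.09 (adjusted p = 0.942 and 0.772). A dim one that named both had 0.29 (adjusted p = 0.180). Rpl8, a protein near the peptidyl transferase centre, had 0.13 (adjusted p = 0.481) and Rpl35, which lies at the exit of the nascent chain, 0.06 (0.815). Both Rpl37 (0.26, adjusted p = 0.0372) and Rpl8 (0.21, adjusted p = 0.0286) passed after quantile normalization. The most negative large-subunit values after Rplp0 were those of Rpl4, a lining of the exit tunnel, at -0.13 (interval -0.38 to 0.12), and of Rpl37a, Rpl7 and Rpl13a, each at -0.10. None of these passed, with adjusted p between 0.589 and 0.748, and all 4 genes had a positive difference within the dimmer set of arrays.

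Rpl11, which carries the 5S RNA into the large subunit together with Rpl5 and can bind the p53 regulator Mdm2, had 4353, 4446 and 3332 in controls and 4593, 3768 and 3718 with resveratrol. The groups overlapped, with a difference of -0.0011 ± 0.12 (SE; interval -0.28 to 0.27). Rpl13a, known also for a role in blocking translation of some inflammatory transcripts, had 4 probe sets with differences of -0.10, -0.15, 0.11 and 0.16 in falling order of brightness, none of which passed. Rpl41, which encodes a very short peptide, had -0.09 on its brightest probe set and 0.05, 0.29 and 0.13 on the dimmer ones, again with none passing. Rpl5 was not measured by a probe set of its own.

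In the small subunit, Rps27, a zinc-binding protein, had the largest difference among the representing probe sets. Its intensities were 296, 215 and 333 in controls and 426, 352 and 387 with resveratrol. All treated values exceeded the controls, but the controls were uneven, and the difference of 0.46 ± 0.14 (SE) had an adjusted p = 0.0662, with 0.72 in the brighter and 0.14 in the dimmer set of arrays. A brighter probe set that named it together with Rps27rt had -0.11 (adjusted p = 0.609), with overlapping groups. Rps6, the substrate of the S6 kinases downstream of mTOR, had 225, 191 and 166 in controls and 241, 283 and 240 with resveratrol, apart by 0.37 ± 0.12 (adjusted p = 0.0761), with 0.20 and 0.60 in the 2 sets of arrays. The 8 probe sets that named Rps6 with a pseudogene had differences from -0.08 to 0.47, and 1 of them passed. The brightest of them, with means of 6528, 6340 and 6251, had -0.08, -0.08 and -0.05, with overlapping groups. The other ones had positive differences. Rps25, used by some viral internal ribosome entry sites, had 321, 299 and 271 in controls and 325, 349 and 336 with resveratrol, a difference of 0.17 (adjusted p = 0.276). A brighter probe set that named Rps25 together with other genes had -0.08 (adjusted p = 0.766), with overlapping groups. All 3 genes are represented by probe sets under 1000, and none passed.

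Rpsa, a protein first described as a laminin receptor, had 6568, 6406 and 5002 in controls and 6565, 6060 and 6002 with resveratrol, overlapping groups that differed by 0.06 (interval -0.19 to 0.31, adjusted p = 0.823). Rps19, the gene most often mutated in Diamond-Blackfan anaemia, had 2997, 2903 and 2441 in controls and 2907, 2698 and 2734 with resveratrol, a difference of 0.0046 (interval -0.20 to 0.21). The most negative small-subunit values were -0.13 for Rps10 and Rps7, -0.12 for Rps28, -0.11 for Rps2 and -0.09 for Rps4x, with adjusted p between 0.638 and 0.759. For Rps28 the arrays read 9182, 10174 and 6811 in controls and 8815, 7373 and 7590 with resveratrol, so that control 3 was the lowest and controls 1 and 2 the highest of all 6. Rps10 differed between its own probe sets. On 1438723_a_at it had 9039, 9914 and 6754 in controls and 8113, 7356 and 7684 with resveratrol, while on 1439374_x_at, named after its values were seen, it had 5123, 3771 and 3963 against 5800, 5306 and 5401. The groups lay apart on 1439374_x_at only, by 0.37 (adjusted p = 0.0770, and 0.0394 with the spike split as a block), and 4 further probe sets of Rps10 had differences between -0.09 and 0.11.

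Of the paralogs, Rpl3l, Rpl39l and Rps4l were too dim to be tested, while Rps27l, like Rpl22l1, was not. Rpl3l, the form of Rpl3 made in heart and skeletal muscle, had 5.47, 17.5 and 12.6 in controls and 11.2, 7.3 and 11.2 with resveratrol. Rpl39l, known from the testis, had 5.97, 12.7 and 9.8 in controls and 7.5, 7 and 3.7 with resveratrol, and Rps4l stayed at or below 1.2 on every array. The only probe set that named Rps16 alone was also too dim, and read 0.5 to 0.7 on every array. Yet the small subunit cannot do without that protein, and probe sets that named Rps16 with other genes had means of 5804 and 6809. A low value on a single probe set is therefore no measure of absence. Rps27l, a paralog of Rps27 known as a target of p53, had 2684, 2688 and 2415 in controls and 2970, 2913 and 2980 with resveratrol. The groups lay apart on this probe set, with a difference of 0.19 ± 0.08 (SE; interval 0.02 to 0.36, adjusted p = 0.186), and its other probe sets gave 0.17 and 0.16. The 3 adjusted p-values were 0.0128 to 0.0253 after quantile normalization. The partners Rpl39 and Rps4x had -0.03 (adjusted p = 0.924) and -0.09 (0.759), and none passed. A brighter probe set that named Rpl39 together with another gene had -0.17 (adjusted p = 0.610), with overlapping groups.

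Dim and bright probe sets of the same gene could be set against each other in 20 genes with more than 1 tested probe set. In 12 of these all probe sets had 1 sign, and in 15 the dimmest had the higher difference. In 9 genes the brightest was above 4000 and the dimmest under 1000, and in all 9 the dimmest had the higher difference, with medians of 0.13 and 0.0018. The same comparison was not made for other genes. Probe sets outside the members also had a lower median above 4000 (-0.10) than at or below it (0.01). The order is therefore not shown to be particular to the members. Rpl37a gives the widest case, with -0.10 on its brightest probe set (7082, 7880 and 5606 against 6975, 5976 and 6070) and 0.80 ± 0.37 (SE; adjusted p = 0.244) on a dim one with 148, 131 and 51.8 against 222, 96.4 and 306, values that overlap. Of the 100 member probe sets 43 carry a suffix that marks possible cross-hybridisation with related sequences. A further 110 probe sets named a member symbol together with another gene, often a pseudogene, and 29 ribosomal protein symbols were found only there. Of the 102 of these that were tested 4 were higher and 0 lower, with a median of -0.02, where 3.95% of all probe sets were higher.

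Genes that work with the ribosomal proteins were taken from lists chosen with earlier results of these data known. Among 17 escorts and late assembly factors 7 were higher and 0 lower, with a median of 0.19, where all genes tested had 5.32% higher and a median of 0.02. Tsr1, which holds immature small subunits in check, had 397, 380 and 391 in controls and 493, 534 and 516 with resveratrol, a rise of 0.39 ± 0.07 (SE; adjusted p = 0.00844). Nob1, the nuclease that makes the end of the small ribosomal RNA, had 228, 227 and 188 in controls and 296, 310 and 307 with resveratrol, a rise of 0.48 ± 0.09 (adjusted p = 0.00996). Neither gene's groups overlapped. Rrs1, which helps load the 5S RNA complex, rose by 0.36 (adjusted p = 0.0151) and Zfp622, a factor of late large-subunit assembly, by 0.33 (adjusted p = 0.0187). These 4 also passed with the spike split as a block, with adjusted p between 0.0154 and 0.0393. Riok2 and Heatr3, named because they did not, had 0.33 and 0.30 (adjusted p = 0.0387 and 0.0467, and 0.0871 and 0.102 with the block). Eif6, Sbds, Nmd3 and Lsg1, which act on the large subunit, had differences between 0.0075 and 0.13 and did not pass. All 17 are represented by probe sets with group means between 145 and 764, below 1000.

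Of 12 regulators of ribosomal protein synthesis 1 was higher and 1 lower, with a median of -0.10, against 5.32% higher and 5.21% lower over all genes. Myc, a transcription factor that drives ribosome production, had 428, 328 and 359 in controls and 566, 543 and 632 with resveratrol, a rise of 0.63 ± 0.10 (SE; adjusted p = 0.00380). Gabpa, a factor that binds many ribosomal protein promoters, had 316, 312 and 358 in controls and 182, 214 and 217 with resveratrol, a fall of 0.65 on the log2 scale (adjusted p = 0.00233). Both groups of arrays lay apart. Yy1 and Mtor had -0.18 and -0.19 and did not pass (adjusted p = 0.170 and 0.184). Larp1, which binds the pyrimidine tract, had 0.10 (adjusted p = 0.460).

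Of 17 other transcripts known for a pyrimidine-rich start 1 was higher and 0 lower, with a median of 0.04, against the same 5.32% and 5.21%. Eef1d, a subunit of the exchange factor for elongation factor 1A, had 1294, 1081 and 983 in controls and 1475, 1532 and 1455 with resveratrol, a rise of 0.41 ± 0.10 (SE; adjusted p = 0.0241). Npm1, Nap1l1 and Naca had 0.22, 0.21 and 0.16 and did not pass (adjusted p = 0.103, 0.170 and 0.256). Eef1a1, a bright transcript like most ribosomal proteins, had 10406, 11788 and 7513 in controls and 10099, 7853 and 8284 with resveratrol, with control 3 again the lowest and a difference of -0.16 (adjusted p = 0.630). Of 3 ribosome components outside the symbol rule, Fau had -0.09, Rpl22l1 the value above and Rpl7l1 0.09, and none passed.

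The proteins of the mitochondrial ribosome, which are encoded by separate nuclear genes, gave 3 higher and 0 lower of 76, with a median of 0.02, where all genes gave 5.32% higher and 5.21% lower. Mrps6 had 2809, 2909 and 2487 in controls and 3752, 3582 and 3599 with resveratrol, groups that lay apart by 0.41 ± 0.08 (SE; adjusted p = 0.0126). Mrpl36 and Mrpl52 rose by 0.31 and 0.40 (adjusted p = 0.0275 and 0.0335).

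Of the markers of fat cells and of fibroblasts, all those measured except Lep had 878 (Thy1 on control 3) as their lowest value on any array. Lep, the fat cell hormone leptin, read at most 26.4 and was too dim to be tested. Fabp4 and Adipoq, defining markers of fat cells, had group means of 11745 and 8620 in controls and 9926 and 6840 with resveratrol, and neither difference passed. Of 4 fat cell markers tested 1 was lower, Cidec, a lipid droplet protein, at -0.57 (adjusted p = 0.00780), and the list's median was -0.29. Pparg, a fat cell transcription factor, had -0.26 and groups that did not overlap, but did not pass (adjusted p = 0.0610). With the spike split as a block Pparg passed as lower (adjusted p = 0.0331), while Fabp4 and Adipoq did not pass (0.738 and 0.345). Of 6 preadipocyte and fibroblast markers 1 was higher, Thy1, a surface protein, at 0.40 (adjusted p = 0.00780), and the list's median was -0.02. Col1a1 and Col3a1, fibrillar collagens, had -0.32 and -0.29 and did not pass (adjusted p = 0.0757 and 0.209). The summed intensity of the adipocyte list was 21443 to 31939 in controls and 20184 to 24582 with resveratrol, and that of the preadipocyte and fibroblast list 25129 to 30694 and 23473 to 28471. Macrophage markers summed to 200 to 259 in controls and 232 to 309 with resveratrol, with Ptprc between 2.6 and 10.8. Of the 4 tested 0 passed, and the list's median was 0.18. Lyz2 had 53.8, 55.7 and 68.9 in controls and 81, 75 and 102 with resveratrol. Its groups lay apart by 0.43 (adjusted p = 0.102). Cd68, Csf1r and Adgre1 had 0.21, 0.15 and -0.04, with overlapping groups. Endothelial, muscle and epithelial lists summed to at most 327 on any array. The part of cell type in the differences of the ribosomal proteins was not tested. Signals at the 3' end over the 5' end, a sign of RNA quality, were 0.729 to 0.831 for Gapdh and 1.20 to 1.29 for Actb over the 6 arrays.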

How the data were processed

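Total RNA of 6 cultures was extracted with Trizol and labelled with biotin (per the labels' protocols). The authors deposited 1 linear intensity value per probe set and array. The summarising software and any annotation build are not given in the sources used here. Each column has a mean of 150 after trimming 2% at each end, so the values carry 1 scaling factor per array, and differences between arrays that depend on brightness remain in them. Control 1 was written with more decimals than the other arrays.

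The members and all gene lists were chosen with earlier results of these data known. Values were turned into log2(intensity + 16), which understates changes of dim probe sets. After leaving out 64 control probe sets, the 60% with the highest mean log2 value were tested by limma 3.58.1 in R 4.3.3 (lmFit, eBayes with an intensity trend, 2-sided, Benjamini-Hochberg). Of the members, 89 of 100 probe sets and 42 of 46 genes passed this filter. The brightest probe set stands for its gene. Gene names come from the platform annotation, and all 100 members matched the RefSeq table of GRCm38.p6 with 0 symbols differing. Named are genes that passed, the 5 largest rises and falls of each subunit, fixed members and paralogs, and up to 4 genes of each other list with the smallest p. Larp1, Eef1a1, Eif6, Sbds, Nmd3, Lsg1, Rps16, Lep and Ptprc were named outside this rule. Other genes named for another reason are marked where they stand. The fit was tested on simulated arrays. Alternatives were other normalizations, offsets, filters, variance models, blocks, probe set choices and leaving out each array. Differences in protein sequence between paralogs were not analysed here. Figures were drawn with matplotlib 3.10.9 in Python 3.11.15.

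The replicate numbers shared by the groups were checked for pairing. The deviations of same-numbered arrays correlated with r = -0.06, -0.02 and 0.09 across probe sets, so the numbers were not used as pairs.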

Additional observations from a re-analysis of the deposited data

How the results depend on the processing

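In all settings run, 0 ribosomal protein genes and 0 probe sets were called lower. Genes called higher, 1 as reported, numbered 5 with quantile normalization, 3 for the brightest 40% of probe sets, 3 without probe sets above 4000, 2 with array weights, 2 when a gene's probe sets were averaged and 2 without those prone to cross-hybridisation. There were 0 without a filter, 0 without an intensity trend and 0 with the spike split as a block. Over all genes 5.32% were higher as reported, 6.02% with quantile normalization and 4.19% with the spike split. For the other settings of this list that share is not given here, so their counts are not read as a result about the members. Probe sets called higher, 3 as reported, numbered 14 with quantile normalization, 5 for the brightest 40%, 5 with array weights, 1 without a filter and 0 without a trend. Over all probe sets the count of 2209 became 1396 without a filter and 861 without a trend. With 1 array left out, the genes called numbered 0 to 1, the member probe sets 0 to 4, all probe sets 1127 to 1956, and the median over member genes was -0.13 to 0.05. That median was 0.19 without probe sets above 4000 and 0.18 within the dimmer arrays. Quantile normalization together with the spike split as a block, chosen after seeing the data, gave 2 genes and 6 probe sets. The replicate block gave 1 gene, Rps27 in place of Rpl14, and 2 probe sets, and left the median at 0.00039. Rpl14 had an adjusted p = 0.0787 and the dim probe set of Rps3 0.0518 in it. Offsets of 1 and 64 gave 1 gene, Rpl14, and 3 probe sets each. The cause of these shifts was not tested. Background was not measured apart from signal, so the limit that signal over background sets for the dim probe sets is unknown here.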

Other observations

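Probe sets that name a ribosomal protein together with another gene included 4 called higher, 1 of which is that of Rpl14 given above. The other ones named Rps6 with a pseudogene (1153, 1070 and 1186 in controls, 1925, 1568 and 1300 with resveratrol, a difference of 0.47, adjusted p = 0.0366), Rps21 with a predicted gene (306, 355 and 452 against 685, 546 and 468, 0.59, adjusted p = 0.0348) and Rpl13 with Tax1bp3 (1276, 1205 and 1172 against 1458, 1508 and 1471, 0.28, adjusted p = 0.0350). The groups lay apart on each. The other probe sets of these symbols that name another gene did not pass: 7 of Rps6 had differences from -0.08 to 0.23, 4 of Rps21 from -0.04 to 0.19 and 3 of Rpl13 from 0.03 to 0.09. On such probe sets the transcripts of both genes cannot be separated, and the passing ones were singled out after their values were seen.

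The array also carries control probe sets for the 18S ribosomal RNA, the RNA of the small subunit. The one at its 3' end had intensities of 286, 155 and 132 in controls and 113, 127 and 112 with resveratrol, and the one at its 5' end 344, 138 and 107 in controls and 156, 150 and 111 with resveratrol. Control 1 was the highest array on both. These values were not tested.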
